A study of Mus musculus with 6 samples.

Results

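The integrated stress response was followed in whole liver through 10 genes: Atf4, Ddit3, Atf3, Trib3, Chac1, Ddit4, Nupr1, Asns, Gdf15 and Fgf21. They were chosen by name, with earlier results of these data known. Every non-control probe whose annotated gene was one of these was taken, which gave 11 probes for 10 genes, 2 of them for Atf4. They stand among 55681 probes on the array, of which those of 17047 genes were bright enough to be compared. The 3 treated C57BL6/J mice received 250 mg/kg of a compound given only as CBZ in the labels, by mouth, and 3 mice that were given dimethyl sulfoxide (DMSO), a solvent, in the same way served as controls. The livers of both groups were taken 2 h later, and the labels name no further allele, agent, sex or age. In whole tissue, a change in the number of cells that make a transcript and a change in the transcript per cell cannot be told apart. Each liver gave 1 Agilent 1-colour array, so n = 3 mice per group throughout, and p-values measure the spread between these mice.

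In the integrated stress response, kinases that sense unfolded protein, missing amino acids, haem shortage or viral RNA phosphorylate the translation factor eIF2. General translation then slows, while the mRNA of the transcription factor ATF4 is translated more, because short upstream reading frames in its leader control it. ATF4, with its target CHOP (the product of Ddit3), binds a composite C/EBP-ATF element and switches on genes of amino acid supply, feedback and cell fate, and the secreted hormones GDF15 and FGF21. ATF4 protein and eIF2 phosphorylation were not measured here, and an array reads mRNA only.

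The C/EBP-ATF element was searched as TGATGNAA on both strands of RefSeq promoter windows of GRCm38.p6, 250 bases before to 50 after each annotated start. It was present for 6 of the 10 genes and in 3.97% of the 32851 promoter windows of the same length. Most of the 10 genes are known from other work as ATF4 targets, so this count describes them and is no independent finding. The 6 promoters with a match are shown because they let the element be set beside the values that follow, with the matched letters in capitals. Gdf15 is shown because its probe differed most between the groups, although these letters are not in either of its windows. Each stretch runs 5′ to 3′ in the direction of the gene and ends just before the annotated start, except for Trib3, whose match lies after the start and is shown with 30 bases.
Trib3, chr2:152344028-152344057, minus strand: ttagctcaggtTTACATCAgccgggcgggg
Chac1, chr2:119350992-119351241, plus strand: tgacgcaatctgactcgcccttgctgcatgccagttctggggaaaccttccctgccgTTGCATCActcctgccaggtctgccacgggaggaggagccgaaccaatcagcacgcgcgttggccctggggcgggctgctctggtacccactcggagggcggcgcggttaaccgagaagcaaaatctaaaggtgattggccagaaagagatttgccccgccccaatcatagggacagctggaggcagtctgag
Asns, chr6:7693210-7693459, minus strand: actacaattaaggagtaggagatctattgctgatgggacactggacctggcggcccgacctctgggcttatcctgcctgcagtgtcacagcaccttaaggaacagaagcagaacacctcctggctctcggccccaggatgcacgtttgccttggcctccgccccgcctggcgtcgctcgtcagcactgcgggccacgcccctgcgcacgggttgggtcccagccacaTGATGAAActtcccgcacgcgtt
Atf3, chr1:191183334-191183583, minus strand: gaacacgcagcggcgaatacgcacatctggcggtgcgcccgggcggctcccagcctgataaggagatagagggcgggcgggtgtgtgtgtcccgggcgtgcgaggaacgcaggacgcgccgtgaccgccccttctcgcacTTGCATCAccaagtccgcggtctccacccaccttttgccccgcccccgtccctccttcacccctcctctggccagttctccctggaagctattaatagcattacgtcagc
Nupr1, chr7:126625471-126625720, minus strand: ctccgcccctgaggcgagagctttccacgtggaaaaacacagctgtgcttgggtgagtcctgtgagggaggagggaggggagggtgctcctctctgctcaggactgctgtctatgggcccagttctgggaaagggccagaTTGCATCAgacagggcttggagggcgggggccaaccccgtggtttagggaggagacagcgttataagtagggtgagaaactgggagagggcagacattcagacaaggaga
Fgf21, chr7:45615491-45615740, minus strand: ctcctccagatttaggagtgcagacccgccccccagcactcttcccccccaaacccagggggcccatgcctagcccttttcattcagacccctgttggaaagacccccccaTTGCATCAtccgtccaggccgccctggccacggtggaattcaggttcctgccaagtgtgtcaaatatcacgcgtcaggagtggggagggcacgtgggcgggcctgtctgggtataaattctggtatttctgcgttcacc
Gdf15, chr8:70632457-70632706, minus strand: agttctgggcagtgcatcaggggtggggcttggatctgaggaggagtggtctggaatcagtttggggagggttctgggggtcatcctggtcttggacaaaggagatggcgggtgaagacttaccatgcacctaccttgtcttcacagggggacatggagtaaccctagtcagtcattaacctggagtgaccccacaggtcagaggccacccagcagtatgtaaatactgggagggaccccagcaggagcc
Chac1, Atf3, Nupr1 and Fgf21 carried the same 8 letters, TGATGCAA read on the opposite strand, which 0.895% of all windows hold, a count made after the matches were seen. Asns carried TGATGAAA, beginning 23 bases before its start. The matches of Atf3 and Nupr1 both began 110 bases before the start, that of Fgf21 139 bases and that of Chac1 193 bases before it. A match of letters is a description and does not show that a factor binds there.

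The 6 arrays lay on 1 slide, and 42.6% to 45.8% of their spots were well above background. All 8 hepatocyte markers were well above background, with a summed level of 6159 to 7082 in CBZ and 6265 to 6556 in DMSO. Here and below a level is the processed signal divided by the array's own 75th percentile. Among the other cell types, the summed level of the 10 Kupffer cell and macrophage markers was 176 to 213 in CBZ and 134 to 300 in DMSO, and that of 9 endothelial markers was 80.3 to 106 in CBZ and 72.4 to 112 in DMSO. For 10 stellate cell markers the sums were 204 to 324 in CBZ and 216 to 250 in DMSO. For 8 neutrophil markers they were 5.01 to 5.75 in CBZ and 3.73 to 7.22 in DMSO, with Mpo and Ngp not above background. For 7 cholangiocyte markers they were 3.98 to 5.15 in CBZ and 3.05 to 4.43 in DMSO, with Epcam and Cldn4 not above background. For 4 B cell markers on the array they were 1.35 to 1.78 in CBZ and 1.16 to 1.39 in DMSO, with Ms4a1 not above background. The sums of the 8 T and NK cell markers did not overlap, at 15.2 to 19.2 in CBZ and 14.2 to 14.4 in DMSO, but without Cd4, the brightest of them, they were 5.76 to 6.11 in CBZ and 5.50 to 6.21 in DMSO, a sum formed after the values were seen. Of the 8, Cd2, Cd8a, Klrb1c and Ncr1 were not well above background on any array. The part of these cells in the results below was not tested.

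None of the 9 genes above background passed limma's test over all genes at an adjusted p of 0.05, by which 0.0528% of the 17047 genes were called, 0.0469% as higher and 0.00587% as lower in CBZ. The adjusted p of Gdf15 and Trib3 came closest, at 0.065 and 0.066 in limma. All 9 were well above background on all 6 arrays, so none of them entered through 1 group alone, while Fgf21 was not above background on any array. At an unadjusted p under 0.05 in limma there were 6 of the 9, against 8.96% of all genes. With each mouse left out in turn that count ran from 4 to 7. The 2 groups did not overlap for 6 of the 9, against 12.9% of all genes. In that last count Trib3, Chac1, Ddit4 and Gdf15 lay above DMSO in every CBZ mouse, where 6.26% of all genes did so. Atf4 and Ddit3 lay below DMSO in every CBZ mouse, where 6.65% of all genes did so. The log2 fold change was above 0 for 5 of the 9 genes and for 49.1% of all genes. The median log2 fold change of the 9 genes was 0.44, beside -0.0043 over all genes. That median is the value of Atf3 alone, whose groups overlapped and whose log2 fold change was -0.15 without CBZ mouse 3. With 4 of the 9 genes lower in CBZ, the median does not show a rise of the 9 as a group.

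**Figure D1:**
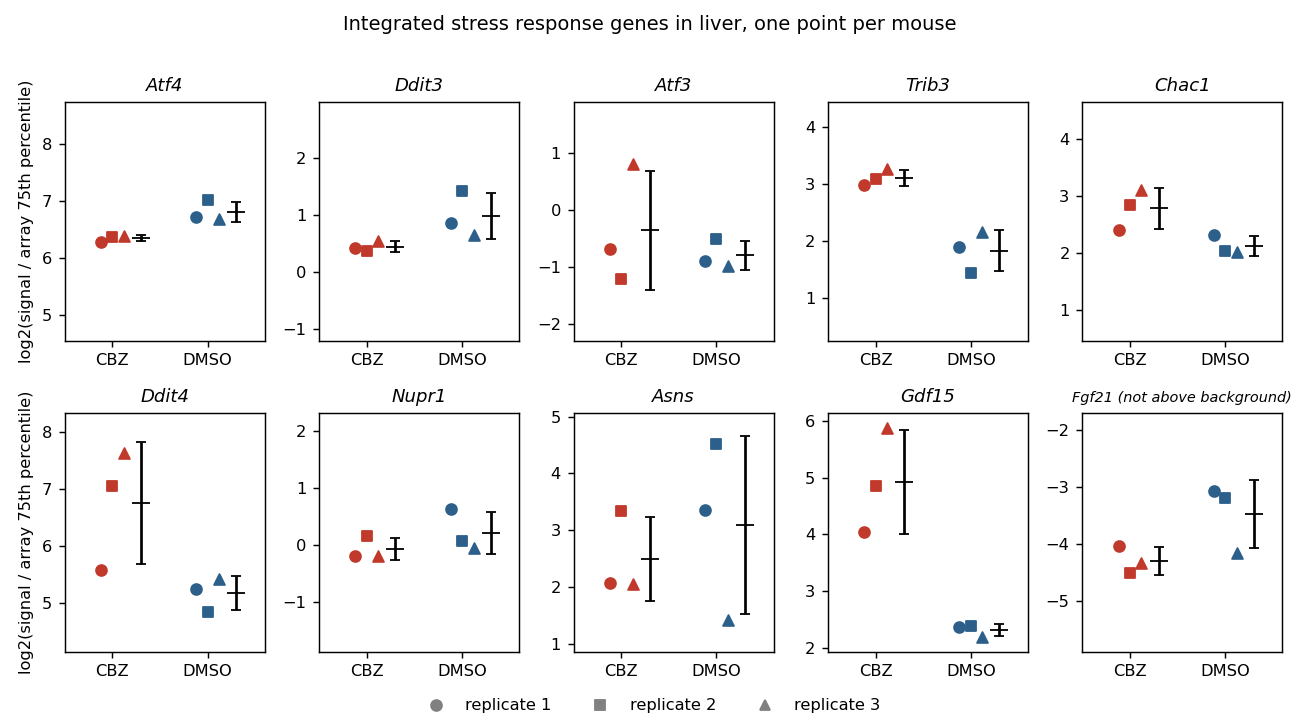
Log2 of the signal over the array's 75th percentile for each of the 10 genes, 1 point per mouse (circle, square and triangle for replicates 1, 2 and 3), CBZ in red and DMSO in blue, with the mean ± SD as black bars and every panel spanning the same range of log2 units. Gdf15, Trib3, Ddit4 and Chac1 lie above DMSO in all 3 CBZ mice, Atf4 and Ddit3 lie below it, and Atf3, Nupr1 and Asns overlap.

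The transcription factors at the head of the response were not higher as a group. Atf4 was probed at chr15:80087902-80087961 (mm9, plus strand). Its level was 77.9, 83.0 and 83.8 in CBZ mice 1, 2 and 3, against 106, 129 and 103 in DMSO mice 1, 2 and 3, and every CBZ mouse lay below every DMSO mouse. The log2 fold change was -0.46 ± 0.14 (SE), with a 95% interval of -0.77 to -0.15 and an adjusted p of 0.32 in limma. The dimmer Atf4 probe, at chr15:80086639-80086698, gave 2.64, 2.60 and 2.73 in CBZ and 3.95, 4.80 and 2.67 in DMSO. There the groups overlapped through DMSO mouse 3, and the log2 fold change was -0.48 ± 0.21. Atf4 varied little within groups, with a residual SD of 0.13 log2 units, and 27.3% of all genes had a smaller one. Its log2 fold change lay between -0.56 and -0.36 under all 17 alternatives.

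Ddit3 encodes CHOP, a bZIP factor that ATF4 induces and that promotes cell death when stress lasts. Its single probe is shown because it is the reading that stands against the targets below, and because its 60 letters cover 304 bases of the genome at chr10:126732518-126732821 (mm9, plus strand).
Ddit3 probe: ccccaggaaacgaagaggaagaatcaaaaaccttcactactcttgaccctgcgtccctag
Ddit3 was at 1.34, 1.28 and 1.46 in the CBZ mice, against 1.82, 2.68 and 1.57 in the DMSO mice. The CBZ mice all lay below the DMSO mice, with the nearest pair, CBZ mouse 3 and DMSO mouse 3, close together. The log2 fold change was -0.53 ± 0.20, with a 95% interval of -0.99 to -0.083 and an adjusted p of 0.43 in limma. Without DMSO mouse 2, which was the highest for both genes, it was -0.31 for Ddit3 and -0.36 for Atf4. Over the 6 mice the centred values of Atf4 and Ddit3 differed least of any pair of the 9 genes, with a root-mean-square difference of 0.15 log2 units. This measure is also small for genes that merely vary little, and between Atf4 and Nupr1 it was 0.29.

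Atf3, a stress-inducible factor of the same family that can repress or activate, was probed at chr1:192994547-192994606 (mm9, minus strand). Its level was 0.621, 0.434 and 1.76 in CBZ, against 0.535, 0.704 and 0.508 in DMSO. CBZ mouse 3 alone stood above the DMSO range and CBZ mouse 2 was the lowest of all. The log2 fold change was 0.44 ± 0.44, with a 95% interval of -0.56 to 1.44 and an adjusted p of 0.91 in limma, and it was -0.15 without CBZ mouse 3 and 0.86 without CBZ mouse 2. CBZ mouse 3 also had the highest level for 14 of the 22 genes of the endoplasmic reticulum unfolded protein response, and for 13.6% of all genes.

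**Figure D2:**
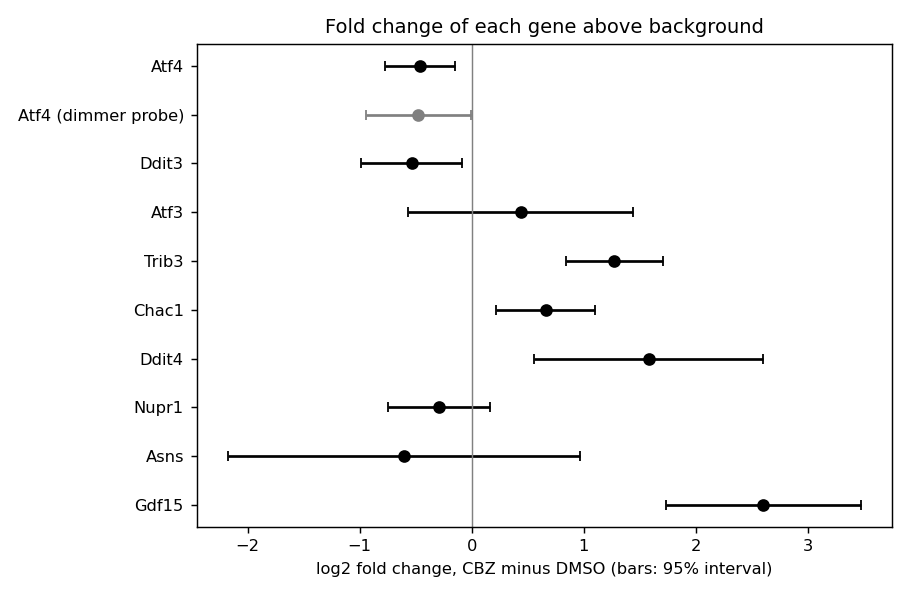
Log2 fold change of CBZ minus DMSO for each gene above background, with its 95% interval from limma as bars, the dimmer Atf4 probe in grey and a line at 0. The intervals of Gdf15, Trib3, Ddit4 and Chac1 lie above 0, those of Atf4 and Ddit3 below it, and those of Atf3, Nupr1 and Asns cross it.

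Among the feedback and effector genes, Trib3, Ddit4 and Chac1 were higher in every CBZ mouse and Nupr1 was not. Trib3 encodes a pseudokinase that binds ATF4 and restrains it. It was probed at chr2:152163161-152163220 (mm9, minus strand), with levels of 7.88, 8.46 and 9.58 in CBZ against 3.73, 2.71 and 4.45 in DMSO. The lowest CBZ mouse was well clear of the highest DMSO mouse. The fold was 2.42, the log2 fold change 1.28 ± 0.19, its 95% interval 0.84 to 1.71, and the adjusted p was 0.066 in limma. Of the 4 genes that were higher, Trib3 differed least between CBZ mice, with an SD of 0.14 log2 units.

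Ddit4 encodes REDD1, an inhibitor of the growth kinase complex mTORC1, which glucocorticoids and low oxygen can also induce. Its probe lies at chr10:59412486-59412545 (mm9, minus strand). Its level was 47.4, 132 and 198 in CBZ, against 37.9, 28.6 and 42.8 in DMSO. CBZ mouse 1 lay just above the highest DMSO mouse, and CBZ mice 2 and 3 lay far above it. The fold was 2.99, the log2 fold change 1.58 ± 0.45 and the adjusted p 0.30 in limma. With each mouse left out in turn the log2 fold change ran from 1.14 without CBZ mouse 3 to 2.17 without CBZ mouse 1, with limma's adjusted p at 0.67 and 0.028.

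Chac1 encodes an enzyme that degrades glutathione and is a direct target of ATF4. It was probed at chr2:119179990-119180049 (mm9, plus strand). Its level was 5.29, 7.13 and 8.63 in CBZ, against 4.99, 4.08 and 4.03 in DMSO. As with Ddit4, CBZ mouse 1 was the lowest of its group and lay next to the highest DMSO mouse. The fold was 1.58, the log2 fold change 0.66 ± 0.19 and the adjusted p 0.31 in limma.

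Nupr1 encodes a small stress-induced chromatin protein. Its probe lies at chr7:133766978-133767037 (mm9, minus strand), with levels of 0.873, 1.11 and 0.877 in CBZ against 1.55, 1.05 and 0.958 in DMSO. CBZ mouse 2 lay within the DMSO range and the other CBZ mice just below it. The log2 fold change was -0.29 ± 0.20, with a 95% interval of -0.75 to 0.17 and an adjusted p of 0.80 in limma. Without DMSO mouse 1 it was -0.082.

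Asns encodes asparagine synthetase, an enzyme of amino acid supply whose promoter element is well studied in amino acid shortage. It was probed at chr6:7625171-7625228 (mm9, minus strand). Its level was 4.24, 10.1 and 4.18 in CBZ, against 10.3, 22.9 and 2.67 in DMSO. The DMSO mice held both the highest and the lowest value, so the CBZ mice lay inside their range. The log2 fold change was -0.60 ± 0.69, with a 95% interval of -2.17 to 0.97 and an adjusted p of 0.92 in limma. Its residual SD of 1.22 log2 units was larger than that of 99.9% of all genes. The sign of its fold change rested on DMSO mouse 2, without which it was 0.11, and it was -1.44 without DMSO mouse 3.

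Of the secreted hormones, Gdf15 differed most of all 10 genes. GDF15 is a stress hormone of the TGF-beta superfamily that acts on the receptor GFRAL in the hindbrain and lowers food intake. Its probe lies at chr8:73153293-73153352 (mm9, minus strand). The level was 16.5, 28.8 and 58.8 in CBZ, against 5.16, 5.23 and 4.59 in DMSO. The lowest CBZ mouse was far above the DMSO mice, which lay close together, while the CBZ mice differed widely, with an SD of 0.92 log2 units against 0.10 in DMSO. The fold was 6.09, the log2 fold change 2.61 ± 0.38, its 95% interval 1.74 to 3.48, and limma's adjusted p 0.065. Only 17 of the 17047 genes had a smaller unadjusted p. With each mouse left out in turn the log2 fold change ran from 2.13 without CBZ mouse 3 to 3.05 without CBZ mouse 1, with limma's adjusted p at 0.074 and 0.020. The adjusted p was 0.16 to 0.27 in limma with any of the other 4 mice left out.

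Fgf21 encodes a liver hormone of fasting and stress that acts through FGF receptors with the co-receptor beta-klotho. Its probe, at chr7:52869305-52869364 (mm9, minus strand), was not well above background on any of the 6 arrays. The processed signal was 11.3, 6.92 and 9.51 intensity units in CBZ and 21.45, 19.04 and 9.656 in DMSO. No fold is given, and a difference was not detectable at this signal. The probe has 20.0% G and C, the lowest of the 11 probes. The receptors were also read: Gfral and Ret, the GDF15 receptor and its co-receptor, were not above background on any array, while the 5 FGF receptor and beta-klotho genes were all measured and 0 of them passed limma's test at an adjusted or at an unadjusted p of 0.05. The lowest of their adjusted p-values was 0.77 in limma, for Fgfr4 at a log2 fold change of -0.19 ± 0.12. Fgfr3 was at -0.18 ± 0.12, and for both of these genes the CBZ mice lay below the DMSO mice, as they did for 6.65% of all genes. Over all genes 0.0528% were called by limma and 8.96% had an unadjusted p under 0.05.

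Whether a call was made for Gdf15 and Trib3 depended on the processing. With normexp background correction the log2 fold changes were 2.49 and 1.13, with limma's adjusted p at 0.0013 and 0.0021. Testing the genes above background on all 6 arrays alone left both fold changes as they were and gave an adjusted p of 0.030 for each in limma. With no filter on dim probes the adjusted p was 0.53 for each in limma. With an intensity trend and robust variances Trib3 was called and Gdf15 was not (limma's adjusted p = 0.00099 and 0.22).

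The position on the slide was a batch that could be tested in part. CBZ mouse 1 and the DMSO mice shared row 1, and CBZ mice 2 and 3 lay in row 2, so a fit with row as a covariate compares CBZ mouse 1 with the DMSO mice. It gave log2 fold changes of 1.73 for Gdf15, 1.15 for Trib3, 0.40 for Ddit4, 0.28 for Chac1 and 0.11 for Atf3. Among the genes that were lower it gave -0.53 for Atf4, -0.55 for Ddit3, -0.41 for Nupr1 and -1.01 for Asns. These rest on 1 treated array, assumed to vary like the others, and row 2 held CBZ mice only. All 5 of the values above 0, that of Gdf15 included, were smaller than those over all mice, and row and mouse cannot be told apart.

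**Figure D3:**
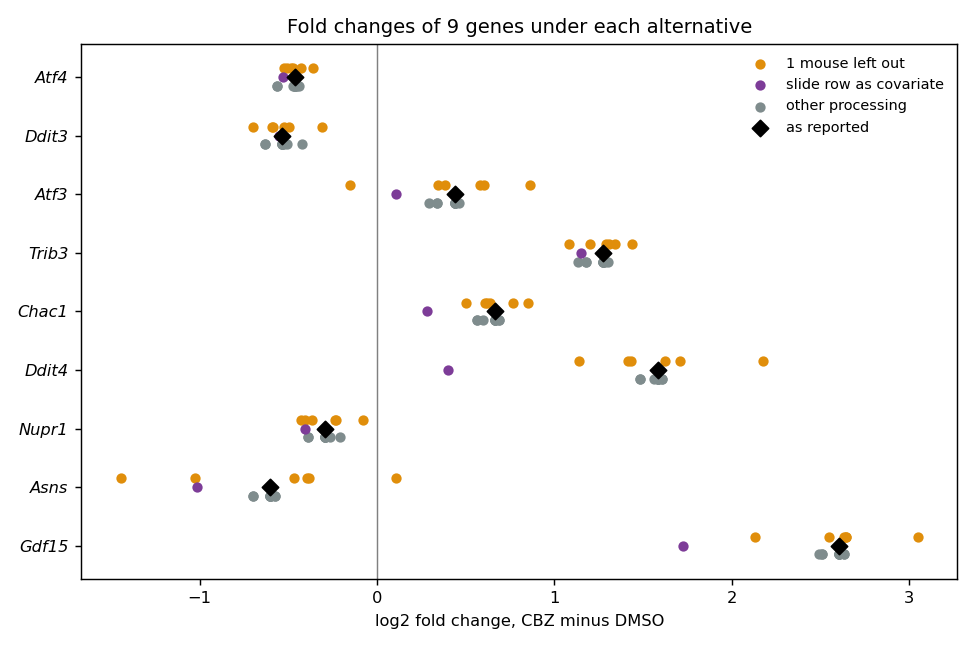
Log2 fold change of CBZ minus DMSO for 9 genes as reported (black diamonds), with 1 mouse left out (orange), with slide row as a covariate (purple) and under the other processing alternatives (grey). Atf3 and Asns change sign with 1 mouse left out, at -0.15 and 0.11, and the other 7 genes keep their sign under every alternative drawn.

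The contrast between the regulators and their targets was also read within each array, where the scaling between arrays drops out. For each of 7 genes the log2 difference from Atf4 on the same array was formed, and the mean of the DMSO mice was set to 0. For Gdf15 this difference was 2.25, 2.97 and 3.98 in the CBZ mice, against 0.13, -0.13 and -0.00011 in the DMSO mice. For Trib3 it was 1.68, 1.69 and 1.85 in CBZ, against 0.15, -0.59 and 0.44 in DMSO. So relative to Atf4 the mean change was 8.40-fold for Gdf15 and 3.34-fold for Trib3. It was 4.13-fold for Ddit4 and 2.18-fold for Chac1. For these 4 of the 7 genes all CBZ mice lay above all DMSO mice, and Atf3, Nupr1 and Asns overlapped. On the same measure 60.9% of the 17046 other genes lay above DMSO in every CBZ mouse, Atf4 itself being lower in CBZ, so the count of 4 of 7 is near the background.

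Set against Ddit3 in the same way, 5 of the 7 genes lay above DMSO in every CBZ mouse, as did 47.7% of all other genes. The change was 8.82-fold for Gdf15, 4.34-fold for Ddit4, 3.51-fold for Trib3 and 2.29-fold for Chac1. Atf3 was the fifth, at 0.66, 0.21 and 2.05 in CBZ against 0.0099, -0.16 and 0.15 in DMSO, where CBZ mouse 2 lay close to the DMSO mice, and on its own values Atf3 overlapped. Nupr1 and Asns changed relative to Ddit3 by 0.24 and -0.068 log2 units, with the groups overlapping. Since Atf4 and Ddit3 were themselves lower in CBZ, they account for 0.46 and 0.53 log2 units of each such difference.

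**Figure D4:**
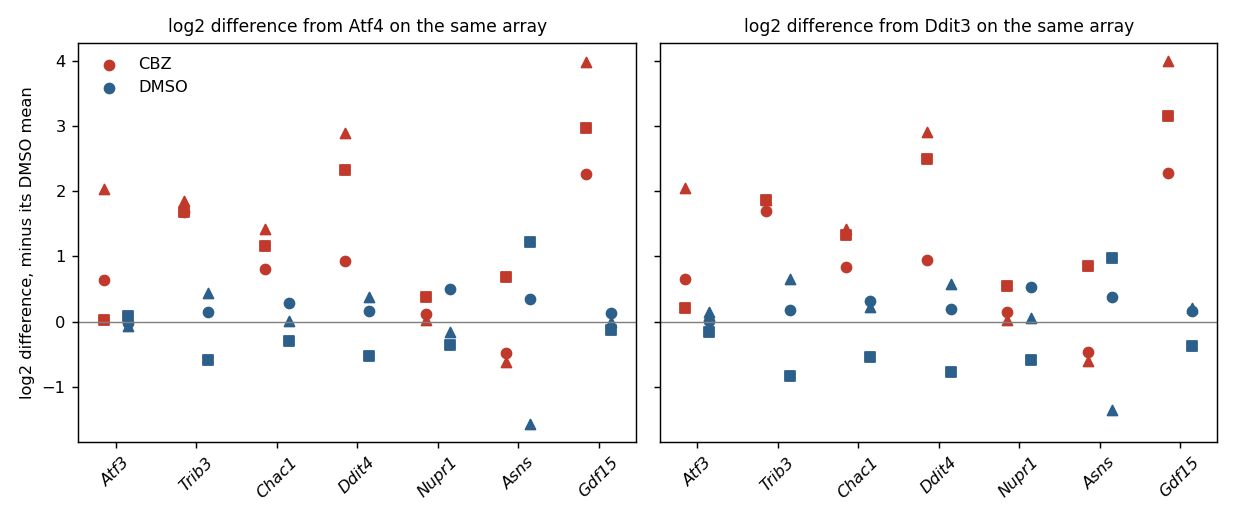
Log2 difference of each of 7 genes from Atf4 (left) and from Ddit3 (right) on the same array, minus its mean over the DMSO mice, with CBZ in red left of DMSO in blue and circles, squares and triangles for mice 1, 2 and 3. Trib3, Chac1, Ddit4 and Gdf15 separate the groups in both panels, as 60.9% of all other genes do against Atf4 and 47.7% against Ddit3, with Gdf15 at 2.25 to 3.98 above the DMSO mean in the left one.

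Other genes of the pathway showed no call, where limma called 0.0528% of all genes and 8.96% had an unadjusted p under 0.05. At that share of calls, 0 in lists of this size does not set them apart. The 20 genes of the eIF2 kinases, phosphatase subunits and eIF2 machinery were all measured, with 11 higher and 9 lower, 0 called by limma and 0 at an unadjusted p under 0.05. Their median log2 fold change was 0.020. Ppp1r15b, the constitutive subunit of the phosphatase that reverses the response, was at -0.30 ± 0.15, and Eif2ak4, the kinase GCN2 that senses uncharged tRNA, was at 0.27 ± 0.14 (limma's adjusted p = 0.64 and 0.66). Among 11 measured bZIP partners of ATF4 and CHOP 0 were called and 1 had an unadjusted p under 0.05. That was Cebpb, at 58.8, 76.8 and 73.3 in CBZ against 49.0, 49.9 and 48.3 in DMSO, a log2 fold change of 0.50 ± 0.14 with an adjusted p of 0.30 in limma. Nfe2l2, which encodes the antioxidant factor NRF2, was at -0.39 ± 0.18 (limma's adjusted p = 0.56).

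The other known targets of ATF4 and CHOP, made up 4 lists of 58 genes. Of these 58, 37 were measured, of which 19 were higher and 18 lower, with a median log2 fold change of 0.0039 beside -0.0043 over all genes. Limma called 0 of them, beside 0.0528% of all genes, and 4 had an unadjusted p under 0.05, or 10.8% beside 8.96% of all genes. The groups did not overlap for 7 of the 37, or 18.9% beside 12.9% of all genes. Gadd45a counts among the 19, the 4 and the 7, but was well above background in CBZ only. It thus entered the test through the group where it is higher. For 35 of the 37 the 95% interval lay wholly below a 2-fold rise. The same held for 20 of 20 genes of the eIF2 machinery list and 10 of 10 mitochondrial stress genes. It therefore does not set the targets apart, and the share over all genes was not counted. In amino acid and one-carbon synthesis 3 of 8 measured genes were higher, the lowest adjusted p being 0.72 for Phgdh, of serine synthesis, at 0.36 ± 0.21 and that of Cbs, of cysteine synthesis, 0.92 at -0.13 ± 0.15 (both limma). Among the amino acid transporters 2 of 8 were higher, with Slc38a7 at -0.22 ± 0.12 and Slc43a1 at 0.15 ± 0.15. Among the aminoacyl-tRNA synthetases 8 of 11 were higher, with Lars at 0.22 ± 0.13 and Cars at -0.16 ± 0.13. These 3 lists had 0 genes called by limma and 0 at an unadjusted p under 0.05.

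All 4 targets with an unadjusted p under 0.05 were stress effectors, a list with 10 measured genes, beside 8.96% of all genes. Gadd45a, a growth arrest gene, was at 0.393, 0.602 and 1.26 in CBZ and 0.216, 0.245 and 0.108 in DMSO, where no array was well above background. It was at least 2.77-fold higher in CBZ, taking the higher of its own signal and the lowest signal well above background on each DMSO array, with an adjusted p of 0.21 in limma. Cebpb was another, and Rgs2, a regulator of G protein signalling, and Ndrg1, which low oxygen also induces, were at 0.64 ± 0.20 and 0.44 ± 0.16. In this list 6 genes were higher and 4 lower. Sesn2, a stress-induced brake on mTORC1 and a target of ATF4, was at -0.21 ± 0.14 (limma's adjusted p = 0.78). It lay below DMSO in every CBZ mouse, as did 6.65% of all genes. Rgs2, Ndrg1 and Sesn2 were named after their values were seen.

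Stress of the endoplasmic reticulum and of mitochondria, which can both feed into the response, was read through lists of their own. In the unfolded protein response of the endoplasmic reticulum 14 of 22 measured genes were higher, with a median log2 fold change of 0.081, 0 called by limma and 0 at an unadjusted p under 0.05. Atf6, one of its sensors, was at -0.31 ± 0.16 and the chaperone cofactor Dnajb9 at -0.34 ± 0.24. Of 10 mitochondrial stress genes 5 were higher, with a median of 0.0011, 0 called by limma and 0 at an unadjusted p under 0.05. Yme1l1 and Ubl5 were at 0.12 ± 0.12 and -0.12 ± 0.13. Over all genes limma called 0.0528%, and 8.96% had an unadjusted p under 0.05.

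**Figure D5:**
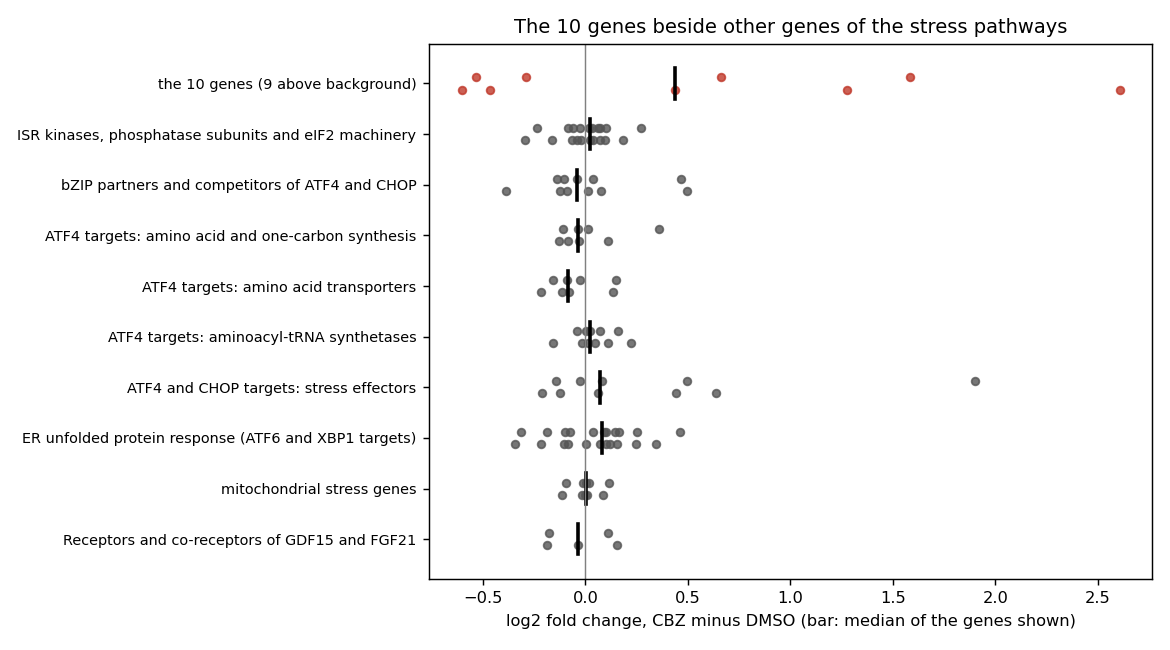
Log2 fold change of CBZ minus DMSO for the 9 genes above background (red) and for the other measured genes of each pathway list (grey), 1 point per gene, with the median of each row as a black bar. The 9 genes run from -0.60 to 2.61, while the ATF4 target lists have medians between -0.086 and 0.072, and the grey point near 1.90 is Gadd45a, whose DMSO signal was not well above background, so that only a difference of at least 1.47 is measured.

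Several of the 10 genes also answer to other regulators, whose targets were counted in the same fit, where 8.96% of all genes had an unadjusted p under 0.05, 0.0528% were called and 49.1% were above 0. Of 12 measured p53 targets, which include Gdf15 itself, 9 were higher, 0 were called by limma and 4 had an unadjusted p under 0.05. Besides Gdf15, Btg2 was at 0.69 ± 0.24 and Ccng1 at -0.34 ± 0.14. Of 14 glucocorticoid and fasting targets 6 were higher and 8 lower, 0 were called and 4 had an unadjusted p under 0.05. The 2 with the smallest p were higher, G6pc at 0.77 ± 0.15 and Igfbp1 at 0.77 ± 0.16 (limma's adjusted p = 0.15 and 0.16). Among the 8 lower were Fkbp5 at -0.25 ± 0.27 and Tsc22d3 at -0.36 ± 0.21, named after their values were seen. Of 13 PPARa targets, a class that includes Fgf21 in mouse liver, 9 were higher, 0 were called and 3 had an unadjusted p under 0.05, with Cyp4a14 at 1.05 ± 0.35 and Pdk4 at 1.44 ± 0.51 (limma's adjusted p = 0.38 and 0.41).

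The genes whose pattern over the 6 mice was closest to that of Gdf15 were DXBay18, Gadd45b, Gadd45a and Setdb2. They were picked from 17046 others after clone and predicted names were left out. Likeness was the root-mean-square difference between log2 values centred on each gene's own mean, and it was 0.30, 0.36, 0.47 and 0.47 log2 units for these 4. The distance of Gadd45a rests on DMSO signals that were not well above background, while DXBay18, Gadd45b and Setdb2 were above background on all 6 arrays. Gdf15 itself departed from its mean by 1.41. Gadd45b, a stress-induced growth arrest gene, rose in CBZ, with a log2 fold change of 2.95 ± 0.20 and an adjusted p of 0.0056 in limma. DXBay18 was at 2.61 ± 0.35 and Setdb2, of a histone methyltransferase family, at 1.86 ± 0.29, and neither passed limma's test (adjusted p = 0.056 and 0.073). For each of the 4 genes the highest of the 6 values was that of CBZ mouse 3 and the lowest CBZ value that of mouse 1, as for Gdf15. Choosing the 4 by likeness to Gdf15 largely fixes their order and their rise, so neither is a separate result. The same mouse order held for Trib3, Chac1 and Ddit4. This is a description of 6 arrays that share 1 slide.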

How the data were processed

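Whole-liver RNA of 6 mice, 3 CBZ and 3 DMSO, was read on 1-colour arrays. Per the labels' protocols, total RNA was labelled with Cy3. Per the file headers, Agilent Feature Extraction 10.7.3.1 turned the authors' scans into signals, and each deposited intensity is background-subtracted and detrended within its array, on a design of build mm9. The deposited table of processed values is a ratio of each signal to its array's median, which dividing the scanner values gave back.

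From each log2 signal the 75th percentile of the non-control spots of its array was taken away. Control and outlier spots were left out. A probe was kept if well above background on all 3 arrays of 1 group, which left 22352 of 55681 probes. A gene was represented by its brightest probe, and the 10 genes of interest are given with every probe. Probes were named through RefSeq (GRCm38.p6), with 27428 matched on accession, 3483 on symbol and 511 on an older synonym, while 24259 kept the file's name. Groups were compared with limma 3.58.1 in R 4.3.3, two-sided, with Benjamini-Hochberg adjustment over all kept probes and a threshold of 0.05. Intervals are 95% moderated intervals. The fit was tested on simulated data, where it called 57.8% of 2-fold, 90.4% of 4-fold and 98.6% of 8-fold changes, with 4.09% false calls. Each simulated run changed 200 of 22352 probes. A gene that was not called may still differ by 2-fold or more. Gdf15 at 6.09-fold and Ddit4 at 2.99-fold were not called, and their residual SDs exceeded those of 99.2% and 99.6% of all genes.

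The 10 genes and all lists were chosen with earlier results of these data known. Named from each list were the 2 genes with the smallest unadjusted p, and for Gdf15 the 4 nearest genes with a symbol. The number of arrays and signal over background limit the precision. The alternatives cover background correction, scaling, filters, variance model, the authors' table, slide row, replicate number, each mouse left out, a gene's mean probe and an adjusted p under 0.10. One list of cell type markers is not reported here.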

Additional observations from a re-analysis of the deposited data

How the results depend on the processing

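Of 153 values of the 9 genes under the alternatives, 138 kept direction and side of the threshold, 13 passed it where the reported value did not, and 2 turned. Those were Atf3 without CBZ replicate 3 and Asns without DMSO replicate 2, and over the mice left out in turn Atf3 ran from -0.15 to 0.86 and Asns from -1.44 to 0.11. Of the 10 genes 0 were called by limma as reported, where 6 had an unadjusted p under 0.05. There were 2 with normexp, 2 with genes above background on all 6 arrays and 2 at an adjusted p under 0.10 (Gdf15 and Trib3 each time), 1 with an intensity trend and robust variances (Trib3), and 3 with median scaling and with the authors' table (Gdf15, Trib3 and Ddit4). Leaving out 1 mouse gave 0 to 2, the 2 being Gdf15 and Ddit4 without CBZ replicate 1. Median scaling moved the median log2 fold change of all genes by -0.10 and used a variance common to all probes, so its p-values do not measure the spread of each gene between mice. Over all genes 8 were higher and 1 lower as reported. The counts were 59 and 44 with normexp, 3 and 1 with quantile normalisation, 44 and 45 with median scaling and with the authors' table, 23 and 7 with genes above background on all arrays, 63 and 71 with the intensity trend, 2 and 2 with slide row, and 28 and 14 at an adjusted p under 0.10. They were 3 and 0 when scaled on spots detected on all arrays (645 lower at an unadjusted p under 0.05) and 0 and 0 without a filter (1058 higher and 542 lower at that p). Rises were thus 57.3% of limma's calls with normexp, 49.4% with median scaling, 75% with quantile normalisation and 100% with detected spots, against 88.9% as reported. Leaving out 1 mouse gave 0 to 16 higher and 0 to 5 lower, with 16 and 5 without CBZ replicate 1. No gene was called without CBZ replicate 2 (where 979 lay above and 736 below DMSO with p under 0.05 before adjustment by limma) or without DMSO replicate 3 (1035 and 996), and none as lower without CBZ replicate 3 (467) or DMSO replicate 1 (615). The causes were not tested, except that filters change the number of genes adjusted over. With the replicate number as a replicate block 6 genes were higher and 1 lower and none of the 10 was called, though 6 had an unadjusted p under 0.05 in limma. The labels give no pairing, and the deviations of same-numbered mice had correlations of -0.24, 0.016 and 0.18, so the numbers were not used as pairs. Signal over background limits what can be read for Fgf21.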

Other observations

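Nearest patterns were also read for other genes of the response, a choice made after seeing the data, again with clone and predicted names left out. Because near genes are picked for a like pattern, their direction and mouse order largely follow from the choice. The 4 genes nearest to Trib3 over the 6 mice were Atp10d, Il4i1, Cyp26a1 and Apbb3, with root-mean-square differences of 0.088 to 0.21 log2 units. Cyp26a1, which degrades retinoic acid, was at 1.05 ± 0.20 (limma's adjusted p = 0.15). Atp10d, a lipid flippase gene, was not well above background on any DMSO array and was at least 1.95-fold higher in CBZ (limma's adjusted p = 0.056), so its distance also rests on dim DMSO signals. Nearest to Atf3 were Creld2, E2f2, Cdiptos and Manf, at 0.23 to 0.34. Creld2 and Manf belong to the unfolded protein response of the endoplasmic reticulum. Creld2 was at 44.2, 36.5 and 99.8 in CBZ against 50.2, 53.8 and 35.8 in DMSO, and Manf at a log2 fold change of 0.25 ± 0.26. For both genes CBZ mouse 3 was the highest of all 6, and neither passed limma's test (adjusted p = 0.95 and 0.91).

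Asns, which spread most among the DMSO mice, was nearest to Dbp, Nnmt, Vax2 and Id1, at 0.56 to 0.60 log2 units, where Asns itself departed from its mean by 1.04. Dbp encodes a clock-controlled transcription factor, and its scaled log2 signal was 3.99, 4.08 and 4.13 in CBZ against 4.65, 5.11 and 3.08 in DMSO. For Asns, as for Dbp and Nnmt, DMSO mouse 2 was the highest of its group and DMSO mouse 3 the lowest. Picking genes near to Asns favours this shared order.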
